A study of Mus musculus with 6 samples.

Results

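Genes of the p53 response, of cell death and of growth arrest were followed in ovaries of E15.5 mouse embryos, 10 of the 35974 gene names in the deposited transcriptome. They were taken by name (Trp53, Mdm2, Cdkn1a, Ccng1, Bax, Bbc3, Pmaip1, Gadd45a, Gadd45b and Txnip), and the counts of their 28 transcripts were summed per gene in every pool. The ovaries came from C57Bl6j embryos whose mothers had received panobinostat (PB), an inhibitor of histone deacetylases (HDACs), at 5 mg/kg from E6.5 to E15.5, or the vehicle (DMSO and water) alone. Polyadenylated RNA of 3 control pools and 3 PB pools was sequenced. Library names and the treatment field give the groups, but the design text describes the control libraries, like the PB libraries, as coming from exposed mice, so the direction of every fold change rests on the names and the treatment field. By the sample annotation the dose was given daily and a pool held 4 ovaries, by the design text a pool held 6 to 8 ovaries, and the published methods describe gavage on alternate days and no fewer than 8 ovaries. Each pool mixes the embryos' germ cells with all somatic cells of the ovary. The sources do not say that the pools came from separate litters, so the p-values measure only the spread between these pools.

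The protein p53, encoded by Trp53, is held at a low level by the ubiquitin ligase MDM2, whose own gene is a p53 target. When DNA is damaged or breaks stay unrepaired, as can happen in oocytes during meiosis, p53 is stabilized mainly as a protein and raises the transcription of genes that stop the cell cycle (Cdkn1a, Gadd45a) or start apoptosis (Bax, Bbc3, Pmaip1). HDAC inhibitors are also known to raise Cdkn1a and Txnip in cultured cells independently of p53. The comparison of control and PB pools therefore asks whether the transcripts of these genes differed in ovaries exposed to PB in utero.

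Most of these genes are known p53 targets, and their promoters were searched for the half-site of the sequence that p53 recognizes. Full sites, made of paired half-sites, were not searched for. RefSeq promoter windows of 300 bases (250 before and 50 after a start site, GRCm38.p6) were found for 9 of the 10 genes, 12 windows in all. The 10-base p53 half-site consensus, searched on both strands, was found in 6 of the 12 windows, those of 6 genes, and in 8.36% of the 32851 windows of all genes. These stretches are shown 5′ to 3′ on the strand of the gene, with the bases that match the half-site in capitals. A match is a description of the letters and says nothing of binding in these ovaries.

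Cdkn1a, upstream start, chr17:29090891-29090952, plus strand: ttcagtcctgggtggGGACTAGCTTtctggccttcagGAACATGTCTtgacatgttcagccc
Ccng1, chr11:40755447-40755486, minus strand: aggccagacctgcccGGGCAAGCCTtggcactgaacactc
Mdm2, chr10:117710920-117710959, minus strand: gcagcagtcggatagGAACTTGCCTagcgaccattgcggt
Gadd45a, chr6:67037423-67037462, minus strand: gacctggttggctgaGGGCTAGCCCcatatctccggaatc
Bax, chr7:45467075-45467114, minus strand: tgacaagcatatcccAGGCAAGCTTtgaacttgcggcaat
Trp53, chr11:69580269-69580308, plus strand: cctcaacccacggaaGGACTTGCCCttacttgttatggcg

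In Cdkn1a the half-sites lay before the upstream start of the gene, and the window of the main start, 2790 bases further on, held none. Near the main start, the GC box GGGCGG, a motif bound by SP1-type factors, was found instead. It is written in capitals here for the main starts of Cdkn1a and of Bbc3, the gene with the lowest fold change of the 10, and the CCAAT box is in capitals for Txnip. The windows of Bbc3, Gadd45b and Txnip held no half-site match. GGGCGG was found in 9 of the 12 windows against 35.7% of all windows, CCAAT in 7 of 12 against 37.4%, the E-box CACGTG in 4 of 12 against 7.15%, and TATAAA in 2 of 12 against 13.6%, each searched on both strands. Some genes have more than 1 window, and windows of Bbc3 that overlap count the same GGGCGG more than once. By gene, GGGCGG was found in 7 of the 9 genes, CCAAT in 7, CACGTG in 4 and TATAAA in 2.

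Cdkn1a, main start, chr17:29093659-29093768, plus strand: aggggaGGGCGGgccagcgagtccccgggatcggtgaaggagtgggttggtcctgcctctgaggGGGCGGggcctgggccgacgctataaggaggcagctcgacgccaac
Bbc3, chr7:16309503-16309582, plus strand: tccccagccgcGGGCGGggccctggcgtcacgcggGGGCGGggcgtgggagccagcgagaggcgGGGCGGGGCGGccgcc
Txnip, chr3:96557837-96557956, plus strand: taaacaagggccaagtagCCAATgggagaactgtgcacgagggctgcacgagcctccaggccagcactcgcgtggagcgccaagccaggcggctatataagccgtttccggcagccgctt

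No gene of the 10 was called between control and PB at the thresholds used throughout (fold change, FC, ≥ 2 and FDR ≤ 0.05), by edgeR's quasi-likelihood test on the gene sums or by DESeq2. Of the 19435 genes tested, 0.0154% were called by edgeR, and 0.0539% of the 20392 with an adjusted p by DESeq2. All 10 were abundant enough to be tested, and all 10 had an FDR of at least 0.888 by edgeR and at least 0.826 by DESeq2. The 95% confidence interval of each fold change by edgeR lay within a 2-fold change in either direction. Of the 10, 3 were higher and 7 lower in PB, with a median log2 fold change of -0.014 against 0.002 for all genes tested. Bbc3 and Txnip had an unadjusted p under 0.05 by edgeR (2 of 10, beside 4.46% of all genes tested), and Bax and Bbc3 by DESeq2 (2 of 10, beside 3.65%). Fewer cells of a type and less RNA per cell cannot be told apart in these pools.

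The libraries held 97165644 to 125985399 counts. The limit that a count of 0 allows, 3 counts, corresponds to 0.0257 to 0.0319 CPM, the counts-per-million unit of all gene sums after TMM scaling of the library sizes. Each of the 10 genes lay above this limit in every pool. Such limits cover counting error only. Principal component 1 (32.0% of the variance of the gene sums) did not separate the groups, and PB 2 stood at one end of it. No sequencing batch is named in the sources used here. No marker of the germ cell, pregranulosa, interstitial, endothelial or other cell type lists was at or under the limit in every pool. The summed level of the 18 germ cell markers was 1531 to 1883 CPM in control and 1319 to 2384 CPM in PB, lowest in PB 2, and that of the 12 pregranulosa markers 1720 to 1896 CPM and 1673 to 1855 CPM.

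Levels of different genes were compared per length, as CPM per kb of exon. Txnip was the most abundant of the 10, at 83.6 to 109 CPM per kb over the 6 pools, followed by Trp53 at 48.7 to 54.9 CPM per kb. Bax (18.9 to 35.2), Cdkn1a (16.3 to 21.6), Mdm2 (14.7 to 18.2), Ccng1 (12.7 to 15.7) and Gadd45a (10.1 to 17.2 CPM per kb) came next, and the ranges of neighbours in this order overlapped. A level per length depends on how counts are divided among transcripts. The 35.2 CPM per kb of Bax was that of control 3, where NM_007527.3, of 869 bases, was given 74.8% of its counts. The Bax gene sum was 35.4 CPM in both control 2 and control 3. Gadd45b (6.16 to 7.02), Bbc3 (2.20 to 3.75) and Pmaip1 (0.196 to 0.341 CPM per kb) were each separated from their neighbours. The genes that drive apoptosis thus ranged from Bax, above 87.9% of all genes with counts, to Pmaip1, above 40.4% of them.

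**Figure D1:**
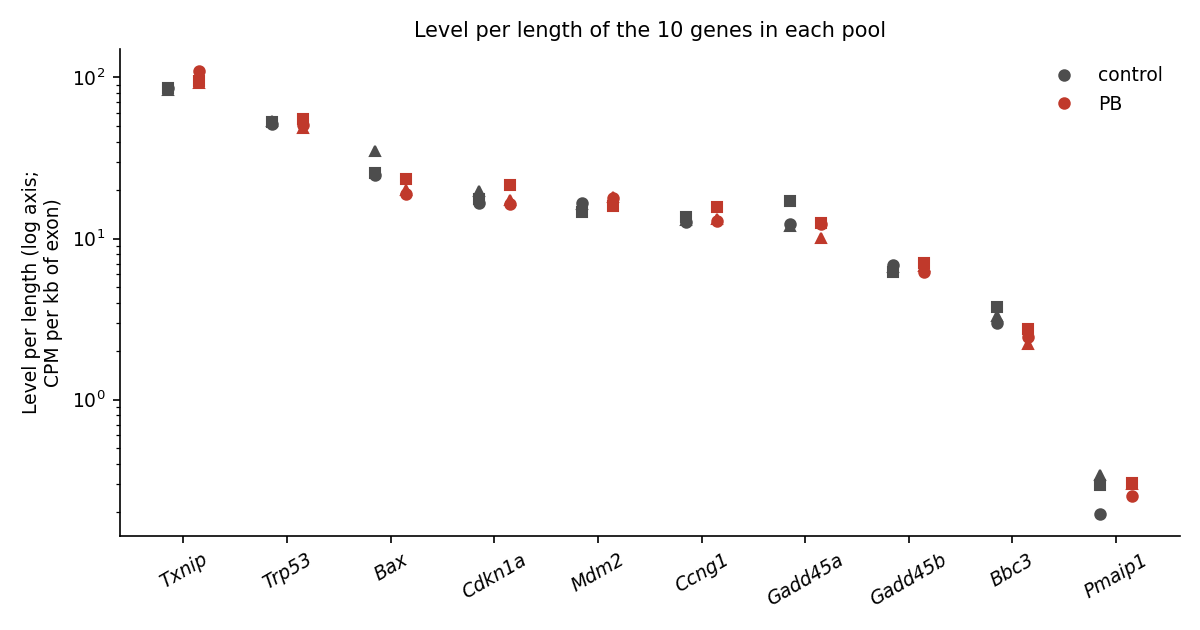
Level per length (CPM per kb of exon, log axis) of the 10 genes, with 1 symbol per pool (control in grey, PB in red). The order runs from Txnip to Pmaip1, and Bax to Gadd45a form a run of overlapping ranges between 10.1 and 35.2 CPM per kb.

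Trp53 itself (chr11:69580359-69591873, plus strand) had a gene sum of 97.2, 102.8 and 98.5 CPM in control 1, 2 and 3, and of 92.8, 100.8 and 90.2 CPM in PB 1, 2 and 3. PB 1 and PB 3 lay below all controls and PB 2 within their range. On the log2 scale the fold change was -0.073 with a standard error (SE) of 0.057 (edgeR, FDR 0.888), and the 95% interval ran from 0.865-fold to 1.04-fold. Part of Wrap53, the neighbour on the other strand, overlaps exons of Trp53 by up to 175 bases. Whether reads of both strands were kept apart is not known, since the sources do not state whether strand was used in counting.

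Mdm2 (chr10:117688875-117710758, minus strand) encodes the ligase that marks p53 for degradation, and its transcript level is a common readout of p53 activity. It stood at 54.9, 49.3 and 53.1 CPM in control and 56.7, 50.9 and 59.5 CPM in PB. The groups overlapped (log2 fold change 0.087, SE 0.076, FDR 0.888, edgeR), with an interval of 0.937-fold to 1.20-fold.

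Cdkn1a (chr17:29090979-29100722, plus strand), which encodes the cyclin-dependent kinase inhibitor p21, differed between the groups by less than the pools within a group. It was counted at 33.4, 36.5 and 39.1 CPM in control and 31.6, 42.4 and 34.4 CPM in PB. PB 2 was the highest of the 6 pools and PB 1 the lowest. Its log2 fold change was -0.0083 (SE 0.12, FDR 0.994, edgeR), and the 95% interval ran from 0.814-fold to 1.21-fold. Its sign turned when 1 pool was left out, to 0.042 without control 3, 0.074 without PB 1 and 0.026 without PB 3, and at no setting was the gene called.

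Ccng1 (chr11:40748552-40755315, minus strand), which encodes cyclin G1, a p53 target that acts back on MDM2, followed the same order of pools in PB. Its values were 46.6, 51.1 and 46.6 CPM in control and 45.4, 55.8 and 47.6 CPM in PB. The difference was smaller than the spread between pools (log2 fold change 0.045, SE 0.089, FDR 0.933, edgeR; interval 0.890-fold to 1.20-fold). Without PB 2 it was -0.048. PB 2, the pool in which Cdkn1a and Ccng1 were highest, was also that with the lowest summed germ cell markers, 1319 CPM against 2209 and 2384 CPM in PB 1 and 3, and the part of cell composition in these levels was not tested.

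Of the activators of apoptosis, Bax and Bbc3 were lower in all PB pools and Pmaip1 was not. Bax (chr7:45461695-45468205, minus strand), whose protein opens pores in the outer membrane of mitochondria, stood at 37.0, 35.4 and 35.4 CPM in control and at 26.7, 33.04 and 32.9 CPM in PB. All PB pools lay below all control pools, by 2.33 CPM at the nearest. The fold change of -0.22 on the log2 scale (SE 0.091) had an unadjusted p of 0.0501 by edgeR and 0.0351 by DESeq2, and an FDR of 0.888 by edgeR. Restricted to the transcripts that match a RefSeq intron chain, the log2 fold change of Bax was -0.61 (unadjusted p = 0.203, FDR 0.917, edgeR). This left out the assembled transcript MSTRG.16364.2, which held 57.0% of the Bax counts, and the groups then overlapped. NM_007527.3, which stayed in, held 2493 counts in control 3 and at most 777 in any other pool.

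Bbc3 (chr7:16308320-16318334, plus strand), encoding PUMA, a BH3-only protein that sets BAX free to act, had the lowest fold change of the 10. It was counted at 5.81, 7.48 and 6.06 CPM in control and 4.74, 5.52 and 4.24 CPM in PB, again with all PB pools below all controls. The nearest pools differed by 0.294 CPM, less than the SD of either group (0.898 CPM in control and 0.644 CPM in PB, n = 3 each). Bbc3 had a log2 fold change of -0.42 (SE 0.15, unadjusted p = 0.0283, FDR 0.888, edgeR), and the interval ran from 0.585-fold to 0.959-fold.

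Pmaip1 (chr18:66458604-66465558, plus strand), encoding NOXA, another BH3-only protein, was the least abundant of the 10. It was counted at 0.550, 0.849 and 0.934 CPM in control and 0.675, 0.822 and 0.826 CPM in PB, from 54 to 99 counts per pool. On the log2 scale the change was -0.0059 (SE 0.26, FDR 0.998, edgeR), and the interval of 0.648-fold to 1.53-fold was the widest toward higher values of the 10.

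The GADD45 proteins bind cell cycle and stress kinases and were first known as products of growth arrest and DNA damage. Gadd45a (chr6:67035096-67037407, minus strand) stood at 15.99, 22.8 and 15.04 CPM in control and 15.3, 15.7 and 12.8 CPM in PB. Control 2 was above all other pools, and without it the log2 fold change moved from -0.30 (SE 0.17, FDR 0.888, edgeR) to -0.093. Gadd45b (chr10:80930091-80932204, plus strand), which is also induced by inflammatory signals, was counted at 9.19, 8.42 and 8.67 CPM in control and 7.98, 9.11 and 8.84 CPM in PB. Its log2 fold change was -0.019 (SE 0.088, FDR 0.976, edgeR), with an interval of 0.853-fold to 1.14-fold.

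Txnip (chr3:96557957-96561857, plus strand) encodes an arrestin-domain protein that binds thioredoxin and restrains glucose uptake and growth. It was counted at 255, 260 and 241 CPM in control and at 310, 274 and 267 CPM in PB. All PB pools lay above all controls, the nearest by 6.86 CPM, less than the SD of the controls (9.66 CPM, n = 3). Txnip had a log2 fold change of 0.17 (SE 0.067, unadjusted p = 0.0424, FDR 0.888, edgeR), and the interval ran from 1.01-fold to 1.26-fold. Gm15441, on the other strand, shares 606 exonic bases with Txnip but was counted at no more than 81 reads in a pool.

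Over the 10 genes, the groups did not overlap in 3. In 1 of them, Txnip, all PB pools were above all controls (5.10% of all genes tested), and in 2, Bax and Bbc3, all were below (5.61% of all genes tested).

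**Figure D2:**
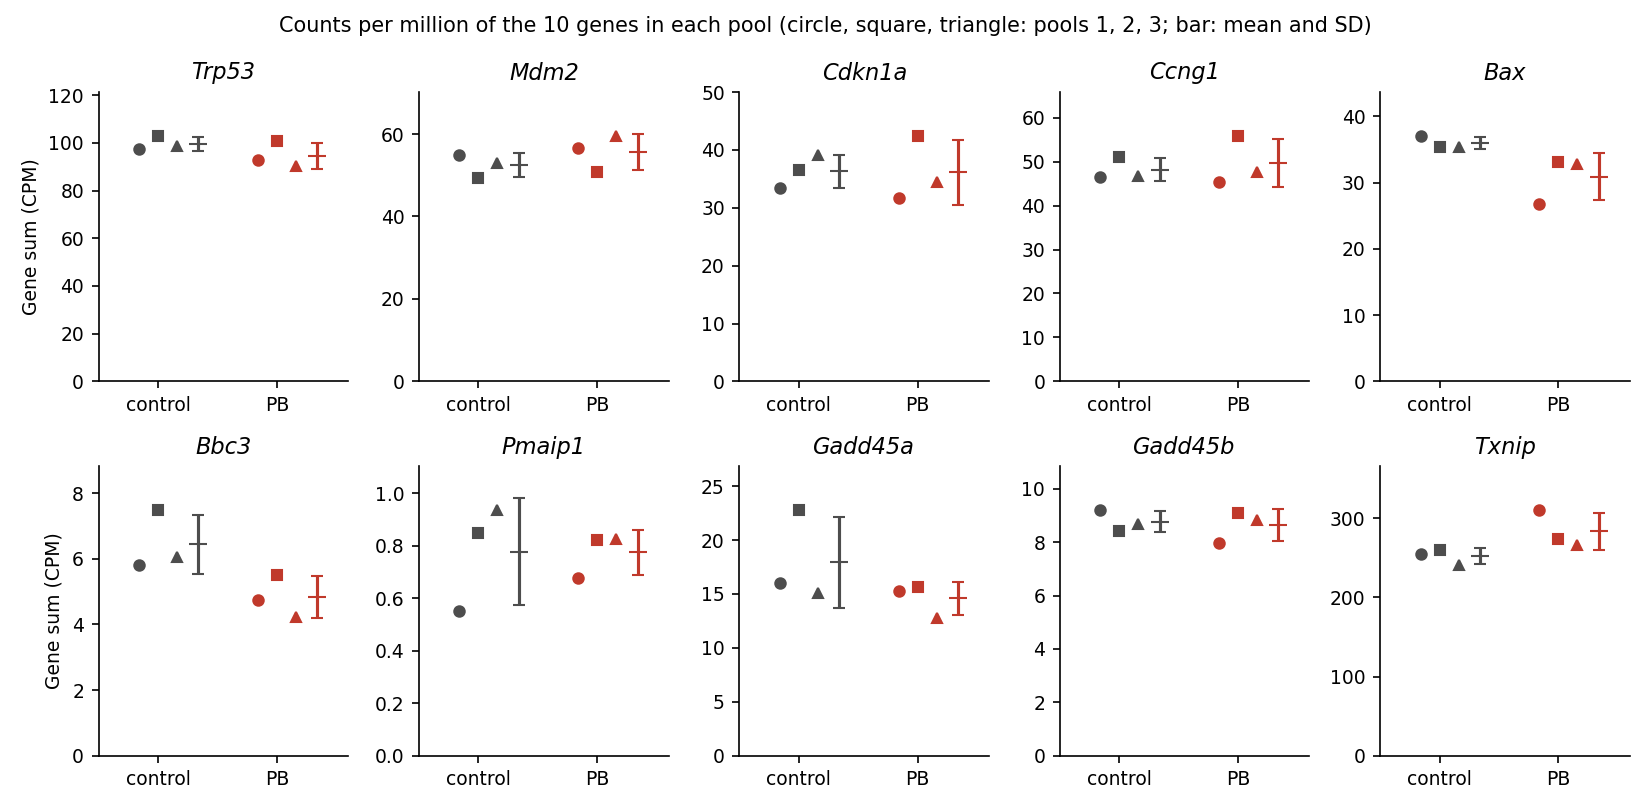
Gene sums in CPM (linear axes from 0) of the 10 genes in each pool, with the mean and SD of each group at its right. The groups separate in Bax, Bbc3 and Txnip and overlap in the other 7 genes.

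**Figure D3:**
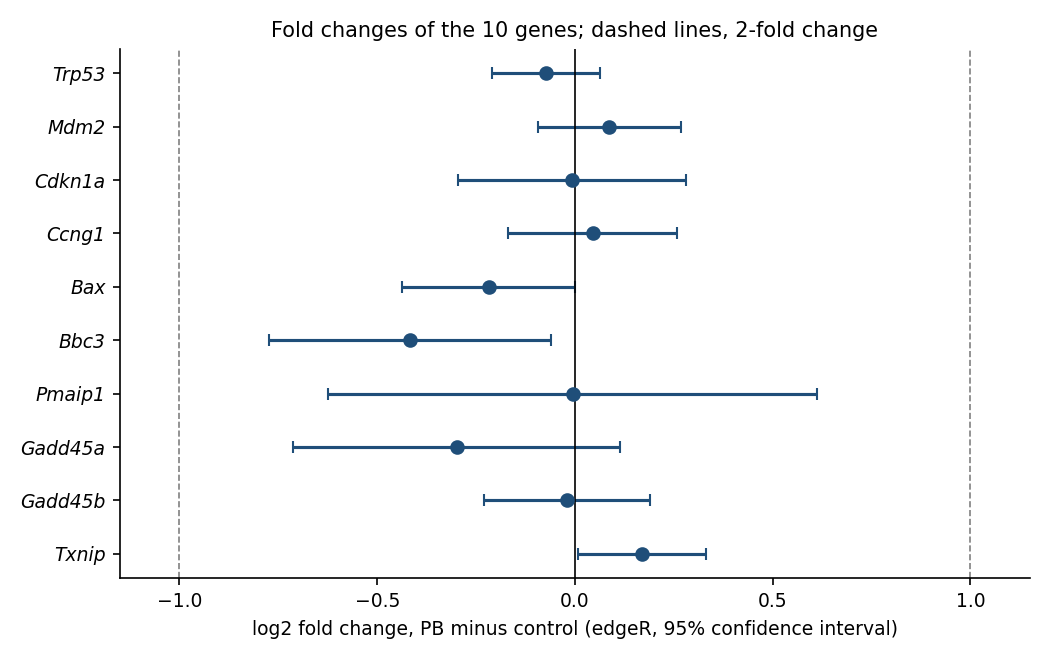
Log2 fold changes (PB minus control) of the 10 genes with their unadjusted 95% confidence intervals from edgeR, dashed lines marking a 2-fold change. All intervals lie between the dashed lines, those of Bbc3 and Txnip do not include 0, and that of Bax ends at it.

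The counts of a gene were then divided by transcript. Of the 28 transcripts of these genes, 22 were tested by edgeR and 26 by DESeq2, and none was called by either (0.0332% of the transcripts tested by edgeR and 1.85% of those with an adjusted p by DESeq2). None of the 22 had an unadjusted p under 0.05 by edgeR, beside 3.56% of all transcripts tested, and 2 of the 26 had one by DESeq2, beside 7.17%. The share that a transcript took of its gene's counts did not overlap between the groups for 5 of 19 tested transcripts of genes with more than 1 transcript, beside 9.48% of 43624 transcripts of all genes. These 5 belonged to Trp53, Mdm2 and Bbc3 and were not independent, since shares of a gene add up to the whole. The counts of a transcript were estimated by StringTie from coverage, and transcripts that share most of their exons share their reads.

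Trp53 was read mainly as NM_011640.3 (79.8% of its counts over all pools) and as NM_001127233.1, which begins the last exon, exon 11, 96 bases earlier (chr11:69591254-69591349). This stretch carries 55 coding bases that end in a stop codon, after which the rest is 3′ UTR. The encoded proteins, of 381 residues for NM_001127233.1 and 390 for NM_011640.3, therefore differ at the carboxyl end. This known alternative end of mouse p53 replaces the usual regulatory tail. The coding part of the stretch is shown because the share of this transcript separated the groups, with the stop codon in capitals.

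Trp53, chr11:69591254-69591308, plus strand: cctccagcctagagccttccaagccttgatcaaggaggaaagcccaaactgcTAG

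The transcript with this stretch took 19.1%, 17.0% and 18.4% of the Trp53 counts in control and 21.5%, 20.9% and 22.03% in PB. All PB pools were above all controls, with means of 18.2% ± 1.07 and 21.5% ± 0.564 (SD, n = 3 each). An exact two-sided permutation test of the share gave p = 0.1, the smallest that 3 against 3 pools allow. It takes this value whenever the groups do not overlap, so it adds nothing to the separation, here and for Mdm2 and Bbc3 below. As a count, its log2 fold change of 0.17 (SE 0.095) came with an unadjusted p of 0.127 and an FDR of 1.00 by edgeR and of 0.0139 and 0.302 by DESeq2. The counts of NM_011640.3 differed by -0.13 on the log2 scale (SE 0.072, FDR 1.00, edgeR), and a further transcript, XM_006533157.3, held 0.441% of the counts.

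Mdm2 was read as NM_010786.4 (83.3% of its counts) and as NM_001288586.2, which lacks the 85 bases of exon 3 (chr10:117709700-117709784). The share without exon 3 was 16.6%, 14.4% and 16.7% in control and 14.0%, 13.0% and 11.8% in PB. All PB pools were below all controls (exact permutation p = 0.1, two-sided), and the log2 fold change of the transcript was -0.22 (SE 0.18, FDR 1.00, edgeR). A transcript that starts within the gene, XM_017313822.1, took 1.25% to 2.04% of the counts in control and 2.04% to 4.24% in PB.

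Of the transcripts of the 10 genes, those of Bbc3 had the largest difference in mean share between the groups. NM_133234.2 held 296, 409 and 197 counts in control and 363, 503 and 335 in PB. XM_006539575.3, whose first exon lies 823 bases further on, held 227, 332 and 280 counts in control and 95, 31 and 0 in PB. The share of the first was thus 34.5% to 51.8% in control and 68.0% to 89.2% in PB, and that of the second 38.1% to 49.0% and 0% to 20.2% (exact permutation p = 0.1 for each, two-sided). In CPM the groups of the first overlapped (log2 fold change 0.41, SE 0.33, FDR 1.00, edgeR). Those of the second did not, at 2.22 to 2.85 CPM in control and 0 to 0.920 CPM in PB, a gap wider than the SD of either group (0.338 and 0.470 CPM, n = 3 each). It was not called (log2 fold change -2.69, SE 1.72, unadjusted p = 0.177, FDR 1.00, edgeR), and leaving out 1 pool gave -4.16 (without PB 1) to -2.10 (without PB 3). A transcript that starts 94 bases from the main start, XM_006539579.3, was at 0 counts in PB 1 and 2 and at 151 in PB 3. The gene sum of Bbc3 was thus lower in PB while its main transcript had a fold change above 1, neither called.

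The division of Bax varied between pools of 1 group more than between groups. The transcript NM_007527.3 held 212, 777 and 2493 counts in control and 273, 289 and 56 in PB, which is 5.83% to 74.8% of the gene in control. MSTRG.16364.2, which StringTie assembled and which reads through 470 bases that lie between exons of NM_007527.3, held 2533, 2709 and 569 counts in control and 1697, 2369 and 2055 in PB. Control 3 therefore had the highest value of the former and the lowest of the latter. NM_007527.3 differed by -2.54 on the log2 scale (SE 1.17), at an unadjusted p of 0.0810 (FDR 1.00) by edgeR and 0.0283 (FDR 0.453) by DESeq2. Without control 3 its value was -1.14. XM_006540584.3 differed by 0.80 on the log2 scale (SE 0.55, FDR 1.00, edgeR).

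In the other genes 1 transcript prevailed or the division was even. Cdkn1a was read to 98.6% from its main start (NM_007669.5), and the transcript from the upstream start with the half-sites (NM_001111099.2) held 22, 73 and 80 counts in control and 48, 0 and 105 in PB. The 2 transcripts of Txnip, which differ by 3 bases at exon 2, were counted at nearly equal shares (48.6% to 54.3% for NM_001009935.2), so reads were split between near-identical models. Their log2 fold changes were 0.20 (SE 0.10) and 0.15 (SE 0.070). Ccng1 was read to 99.9% as NM_009831.2, and Pmaip1, Gadd45a and Gadd45b had 1 transcript each.

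**Figure D4:**
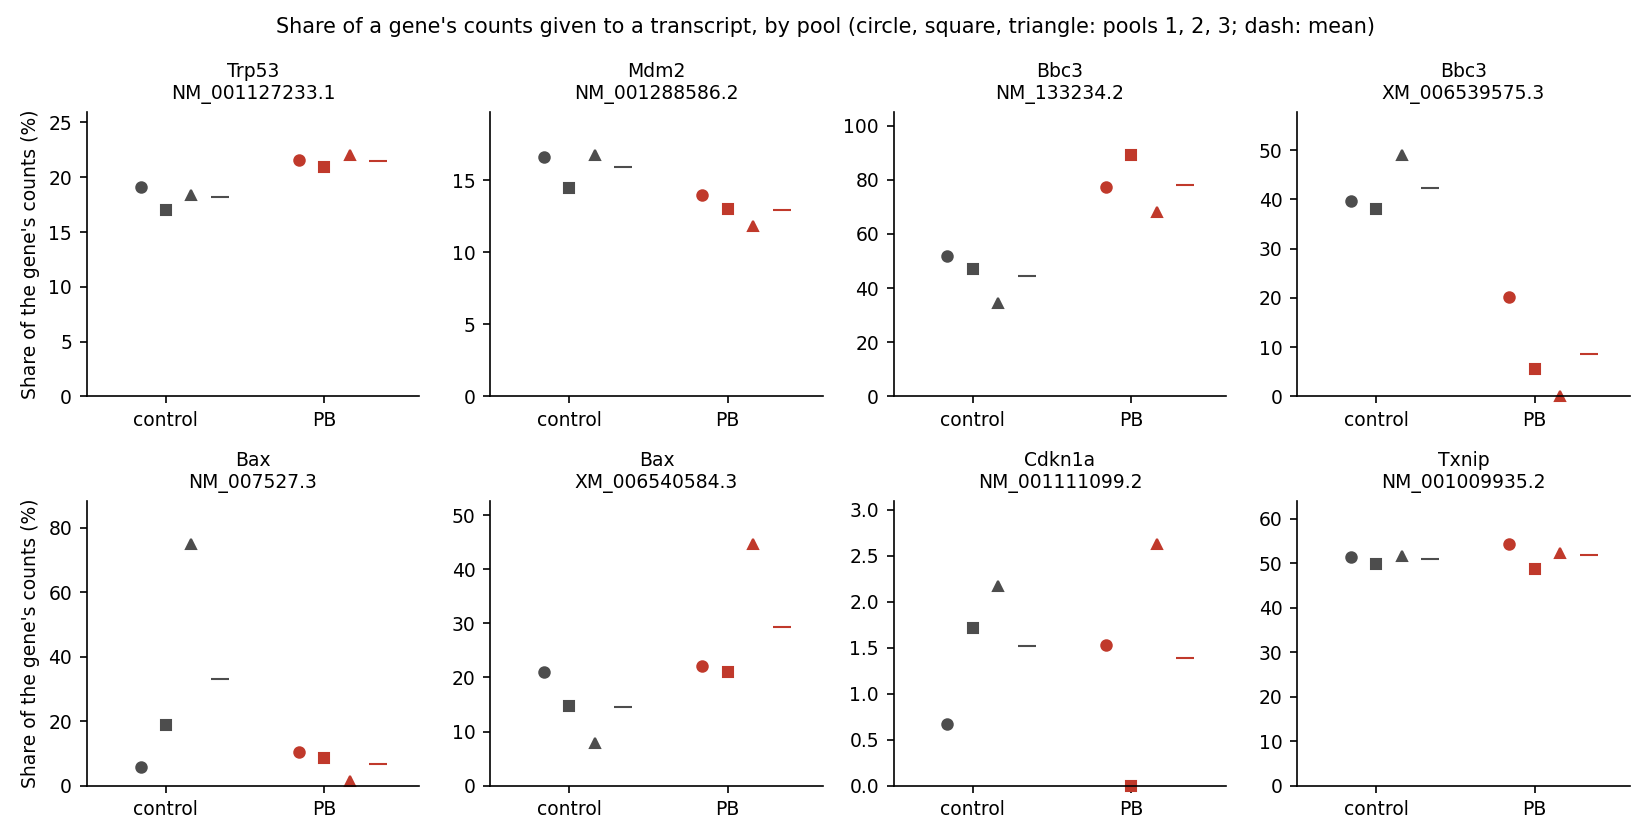
Share of a gene's counts (percent, linear axes from 0) held by 8 transcripts in each pool, with a dash for the mean. The groups separate for the transcripts of Trp53, Mdm2 and Bbc3, whereas the shares of NM_007527.3 of Bax span 5.83% to 74.8% within the control group alone.

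The other genes of these pathways were read from the same test over all genes. In all, 5 lists held 146 genes, of which 144 were tested. None was called by edgeR or by DESeq2. An unadjusted p under 0.05 by edgeR was found for 5 of the 144 (3.47%, beside 4.46% of all genes tested), 1 higher and 4 lower in PB, and the median log2 fold change was -0.0084.

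Of the 21 regulators and kinases of p53 tested, none had an unadjusted p under 0.05, and 14 were higher and 7 lower in PB (median 0.033). The furthest in each direction were Mdm4, an inhibitor of p53 related to MDM2, with a log2 fold change of 0.41 (SE 0.33), and Rchy1, another p53 ubiquitin ligase, with -0.29 (SE 0.20). Mdm4 was at 29.8 CPM in control 2 and at 69.6 to 79.9 CPM in all other pools, and its value was 0.089 when control 2 was left out and 1.29 with only transcripts that match a RefSeq intron chain. Rchy1 was at 42.9 CPM in control 3 and at 24.9 to 28.1 CPM in all other pools, and without control 3 its value was -0.024. Neither gene was called at any of these settings.

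Of 45 further p53 targets, 20 were higher and 25 lower (median -0.014). Pltp, a phospholipid transfer protein, was at 10.7, 9.87 and 11.8 CPM in control and 9.26, 9.21 and 8.49 CPM in PB (log2 fold change -0.26, SE 0.093, unadjusted p = 0.0282, FDR 0.888, edgeR). Pml, the scaffold of PML nuclear bodies, was at 41.1 to 59.9 CPM in control and 32.2 to 46.5 CPM in PB (log2 fold change -0.44, SE 0.18, unadjusted p = 0.0479, FDR 0.888, edgeR).

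Among the 34 tested genes of the BCL2 family, caspases and their partners, no unadjusted p was under 0.05, with 15 higher, 19 lower and a median log2 fold change of -0.0044. The BH3-only genes Bik (0.19, SE 0.32) and Hrk (-0.29, SE 0.38) had the furthest values, both from levels under 1 CPM.

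Of 26 genes in the list of cell cycle inhibitors, GADD45 partners and growth arrest, 11 were higher and 15 lower (median -0.034). The list also held cyclins, cyclin-dependent kinases, Pcna and E2f1, which promote the cell cycle, so these counts and the median mix genes of opposite effect. Cdkn1b, encoding p27, was at 206, 184 and 184 CPM in control and 240, 206 and 208 CPM in PB (log2 fold change 0.19, SE 0.078, unadjusted p = 0.0477, FDR 0.888, edgeR). Cdkn2d, encoding the CDK4 and CDK6 inhibitor p19, was at 30.9, 30.5 and 28.5 CPM in control and 26.8, 26.0 and 28.0 CPM in PB (log2 fold change -0.16, SE 0.060, unadjusted p = 0.0390, FDR 0.888, edgeR). E2f1, which activates S phase genes and is named here after its values were seen, was at 8.98, 42.1 and 7.25 CPM in control and 37.5, 40.0 and 39.6 CPM in PB. Its log2 fold change was 1.00 (SE 0.65, FDR 0.888), and 2.26 (FDR 0.0167, edgeR) without control 2, the only one of these 144 genes called in any such alternative.

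In the list of 18 thioredoxin and arrestin-domain genes, which also held Mlx and its partner factors and glucose transporters, 7 were higher and 11 lower (median -0.033). Mlxipl, the glucose-sensing factor that drives Txnip transcription together with Mlx, was at 2.39, 2.59 and 2.46 CPM in control and 1.51, 1.83 and 1.90 CPM in PB. All PB pools lay below all controls (log2 fold change -0.51, SE 0.15, unadjusted p = 0.0117, FDR 0.888, edgeR), whereas those of Txnip lay above.

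**Figure D5:**
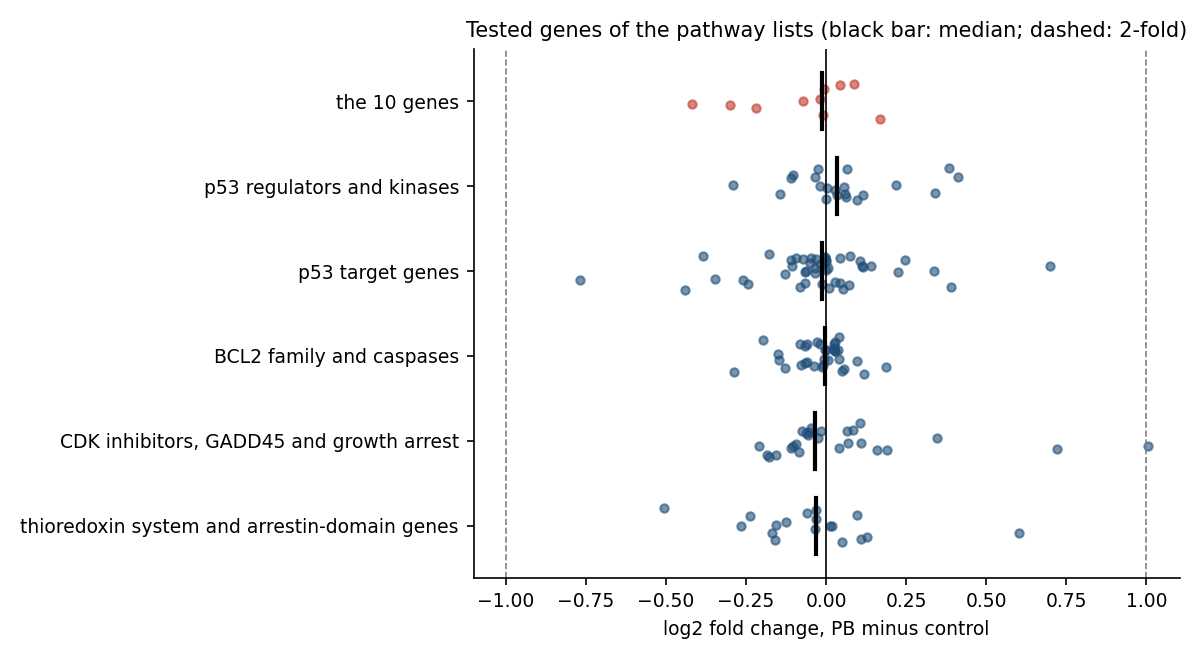
Log2 fold changes (PB minus control) of the 10 genes and of the tested genes of 5 pathway lists, 1 point per gene, a black bar at the median and dashed lines at a 2-fold change. All medians lie between -0.034 and 0.033, and the point furthest to the right is E2f1.

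Cell type markers were counted beside these lists. The summed levels of the endothelial list were 393 to 431 CPM in control and 371 to 394 CPM in PB, those of the macrophage list 92.1 to 103 CPM and 83.3 to 99.2 CPM, and those of the red blood cell list 15402 to 32645 CPM and 18903 to 20518 CPM. The interstitial and perivascular list summed to 5453 to 6198 CPM and 5348 to 6070 CPM, the mesonephros list to 306 to 317 CPM and 300.3 to 330 CPM, the adrenal list to 27.1 to 32.3 CPM and 27.6 to 31.2 CPM, and the Sertoli and Leydig list to 85.6 to 91.0 CPM and 52.9 to 89.0 CPM. The groups overlapped in the sum of every cell type list. Of the pathway lists, the p53 regulators and kinases summed to 3690.3 to 3729.9 CPM in control and 3764.2 to 3872.5 CPM in PB. The further p53 targets summed to 1585.8 to 1650.5 CPM and 1560.9 to 1572.9 CPM. The groups overlapped in neither sum, but such sums follow their most abundant or most variable genes. Rpl5 alone was at 967 to 1038 CPM in control and 988 to 1001 CPM in PB. Btg2, among the targets, was at 13.3 to 55.2 CPM and 8.93 to 35.8 CPM. Gene by gene, the groups did not overlap in 0 of the 21 regulators. Of the 45 targets, all PB pools lay above in 2 and below in 1 (5.10% and 5.61% of all genes tested). The sums of the other pathway lists overlapped, and no sum was tested. Single markers, named here after their values were seen, were not called, and those with an unadjusted p under 0.05 were mostly lower in PB. Of all genes tested, 4.46% had an unadjusted p under 0.05 by edgeR and 50.68% had a log2 fold change above 0. In 5.61% all PB pools lay below all controls. All 10 red blood cell markers were lower in PB (median log2 fold change -0.29), with Hba-a2 at -0.77 (SE 0.28, unadjusted p = 0.0324, FDR 0.888, edgeR). Hba-a1 differed by -0.090 (SE 0.47), and how reads were divided between Hba-a1 and Hba-a2 was not tested. Of 9 endothelial markers, 8 were lower (median -0.14), among them Flt1 at -0.31 and Tie1 at -0.24. Of 18 germ cell markers, 10 were higher and 8 lower (median 0.23), and the 3 with an unadjusted p under 0.05 were lower, Kit at -0.29, Pou5f1 at -0.58 and Dppa3 at -0.52. In Kit every PB pool lay below every control pool (SE 0.064, unadjusted p = 0.00317, FDR 0.888, edgeR). In the other lists, Amhr2 (-0.15) and Dmrt1 (-0.52) were lower and Acta2 (0.30) higher. The part of these cell types in the values of Bax, Bbc3 and Txnip was not tested.

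The pattern of Cdkn1a over the 6 pools was most like those of 6720489N17Rik, Rhobtb3 and Hnrnpr (Pearson's r of log2 CPM 0.995, 0.993 and 0.991), and that of Trp53 most like those of Hist1h2ad, Gm13202 and Gpatch4 (0.997 for each). Over 6 pools that share their depth and composition, 292 genes had an r above 0.9 with Cdkn1a and 642 with Trp53, so these are descriptions of the order of 6 values.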

How the data were processed

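The authors aligned the reads (100 bases, paired ends) to mm10 with HISAT2 2.1.0, used StringTie 1.3.5 with RefSeq as the guide to assemble and merge transcripts, and deposited a matrix of counts per transcript, whole numbers without normalization that prepDE derives from coverage. The kit was strand-specific. Whether strand was used in counting is not given in the sources used here. The deposited table of their DESeq2 1.30.0 comparison (log2 fold changes and p-values) served for gene names only, and its 6 columns of normalized values per pool were not used. The merged annotation gave positions and exon lengths. Transcripts without a gene name held 3.05% to 4.49% of the counts and stayed out of the gene sums.

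Gene sums and transcripts were scaled by TMM, filtered with filterByExpr (minimum count 10, minimum total 15) and tested with edgeR 4.0.16 in R 4.3.3 (limma 3.58.1), with Benjamini-Hochberg adjustment over all genes or transcripts. DESeq2 1.42.0 was an alternative. SE is the log2 fold change divided by the square root of F. CPM per kb uses unscaled library totals. The members, gene lists and tests were chosen with earlier results of these data known. Named were all 10 genes, pathway genes called or with an unadjusted p under 0.05 (otherwise the furthest in each direction), up to 3 transcripts a gene and the 3 genes most like Cdkn1a and Trp53. No member or list set test was made. Samples were grouped by their annotated treatment, although the design text also calls the control libraries exposed, and other settings are given at the end.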

Additional observations from a re-analysis of the deposited data

How the results depend on the processing

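None of the 10 genes and none of their transcripts was called under any alternative run, namely edgeR with the size factors of DESeq2, DESeq2 itself, the data unfiltered, a filter that asked every pool of 1 group for 10 counts, the replicate number as a block, each pool left out, FDR ≤ 0.05 without a fold threshold and FDR ≤ 0.1, and for genes also known transcripts only and StringTie loci. Over 13 alternatives each, the lowest FDR of any of the 10 was 0.282. Among all genes the 3 calls became 11 with DESeq2, 0 with the replicate block, 8 with known transcripts only and 5 without a fold threshold, and 3 to 9 with 1 pool left out (9 without PB 2, and 5 without control 1, control 2 or PB 3). The listed pathway genes had 0 to 1 calls with 1 pool left out, the 1 being E2f1.

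Whether the replicate numbers pair the pools was not settled. Deviations from the group means correlated by 0.10, 0.22 and 0.036 between pools of the same number. Between pools of different numbers they correlated by -0.21 to 0.15. Control 2 and control 3 correlated best with the PB pool of the same number, but control 1 with PB 3 (0.15). With the replicate block, 1091 genes had an unadjusted p under 0.05 by edgeR, against 867 without it. With the replicate block the log2 fold change of Pmaip1 was 0.019 and that of XM_006533157.3 of Trp53 -0.010, both turned in sign and neither called, and no call on the 10 genes changed.

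Signs turned for genes near 0 when 1 pool was left out, with ranges of the log2 fold change from -0.14 to 0.074 for Cdkn1a, -0.048 to 0.099 for Ccng1, -0.20 to 0.14 for Pmaip1, -0.059 to 0.029 for Gadd45b and -0.012 to 0.43 for Bik. Among transcripts they turned for NM_007669.5 (-0.14 to 0.083) and NM_001111099.2 (-1.22 to 0.30) of Cdkn1a, NM_009831.2 (-0.043 to 0.10) and XM_011248706.1 (-0.092 to 2.20) of Ccng1, XM_006533157.3 of Trp53 (-0.14 to 0.22), MSTRG.16364.2 of Bax (-0.35 to 0.39) and XM_006539579.3 of Bbc3 (-8.90 to 0.17). The cause was not tested. Bax (-0.27 to -0.13 with 1 pool left out), Bbc3 (-0.52 to -0.30) and Txnip (0.095 to 0.21) kept their direction in all 13 alternatives each. Gene sums were more precise than transcript counts, whose biological coefficient of variation was 98.4% against 20.9%.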
